A study of Macaca fascicularis with 6 samples.

Results

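The genes described here are 10 named transcripts of the hypoxia response and of glycolysis, followed through cartilage made from induced pluripotent stem cells (iPSCs) of the cynomolgus monkey, before and after transplantation into the knee. They are *ADM*, *VEGFA*, *SLC2A1*, *PGK1*, *LDHA*, *ENO1*, *BNIP3*, *NDRG1*, *PDK1* and *HIF1A*. These members and the gene lists used below were chosen by name with earlier results of these data known. Their ranks and counts therefore describe and do not test. Of these 10, 9 were listed in the count matrices, among 13950 genes in the first matrix and 14020 in the second. *VEGFA* was not listed under its symbol. A row listed as simVEGF165 was present, but none of the sources used here pairs that name with *VEGFA*, so it was not counted as a member. It is described beside the members under its listed name and was picked after its values were seen.

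Single cells of 5 conditions were sequenced by TAS-Seq, a bead-based method that reads the whole transcriptome of each captured cell. Undifferentiated cyiPSCs of 1 line, in which a promoter active in all cells drives green fluorescent protein (EGFP), formed the first condition. Cartilage organoids (cyiPS-Cart) made from that same line in chondrogenic culture with BMP2, TGF-β1 and GDF5 formed the second and are called pre-transplant. The post-transplant condition was cyiPS-Cart recovered from cartilage defects in the knees of recipients with unmatched major histocompatibility genes, 4 months after surgery. The 2 remaining conditions came from wild-type monkeys of 3 to 4 years, the age also given for the post-transplant sample. They were articular cartilage without damage (cyAC) and the fibrous tissue that filled defects left empty, in animals without a graft (cyFT). The label of their library also gave 4 months after surgery. Harvested sites of a monkey were combined for sequencing, and how many of the monkeys entered each library was not given in the sources used here. Each condition was 1 sample, so no replicate check or test of a difference between conditions was possible, and the intervals below are 95% intervals that cover counting error only. The values count sequencing reads, so copies of 1 molecule made by PCR may be counted more than once.

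Hypoxia-inducible factor 1 is a pair of proteins, the oxygen-sensitive HIF-1α encoded by *HIF1A* and its constant partner ARNT. In oxygen, prolyl hydroxylases (EGLN proteins) mark HIF-1α for destruction by VHL, so the factor is set mainly by protein stability and much less by its transcript. When oxygen is low, the factor raises transcription of glucose transporters, glycolytic enzymes, the mitophagy receptor BNIP3 and secreted peptides such as vascular endothelial growth factor and adrenomedullin. Articular cartilage has no blood vessels, and its chondrocytes live at low oxygen and depend largely on glycolysis.

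The first matrix held 2500 cyiPSC cells and 3527 pre-transplant cells, which came from 1 library. The second held 320 cells of every condition but the cyiPSCs. Of its 320 pre-transplant cells, 300 were also in the first matrix. The cyAC and cyFT cells shared a library, and the post-transplant cells had a library of their own, so that in each comparison with post-transplant cells, and in that of pre-transplant cells with cyAC, the library and the condition cannot be told apart. Median depth ranged from 27499.5 reads per cell in cyFT to 143075 in cyiPSCs, and mitochondrial transcripts took 1.97% of reads in post-transplant cells and 3.60% to 7.72% elsewhere. No cell number was shared between libraries within the second matrix, and the first matrix shared 2 with the post-transplant library and 4 with that of cyAC and cyFT. The EGFP transgene had reads in 100% of cyiPSC, pre-transplant and post-transplant cells and in 0 of 320 cells each of cyAC and cyFT, which allows a share of up to 0.938% when 3 cells are taken as the limit for a count of 0. The 4 cartilage markers *COL2A1*, *ACAN*, *SOX9* and *COL9A1* summed to 55.6 CPM (reads per 1000000 reads of the sample) in cyiPSCs, to between 37311 and 66330 in cyiPS-Cart and cyAC, and to 27967 in cyFT.

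*ADM* was the member that set the transplanted cells apart. It encodes adrenomedullin, a secreted peptide that dilates and stabilises blood vessels and is a well-known target of hypoxia. Summed over cells it reached 9.08 CPM in cyiPSCs, in the pre-transplant cells of the first and the second matrix 4.68 and 5.21 CPM, 395 CPM in post-transplant cells (95% interval 388 to 402, exact Poisson), 3.89 CPM in cyAC and 7.85 CPM in cyFT. All samples other than the post-transplant one lay under 10 CPM, and no interval of theirs came near that of the post-transplant cells. The post-transplant level was 75.7 times the pre-transplant one (95% interval 62.8 to 92.1) and 101 times that of cyAC (76.0 to 139). On the log2(CPM + 1) scale these differences were 5.99 and 6.34, the rank of *ADM* from the highest being 2 of 3421 genes compared with pre-transplant cells and 5 of 3235 compared with cyAC.

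**Figure D1:**
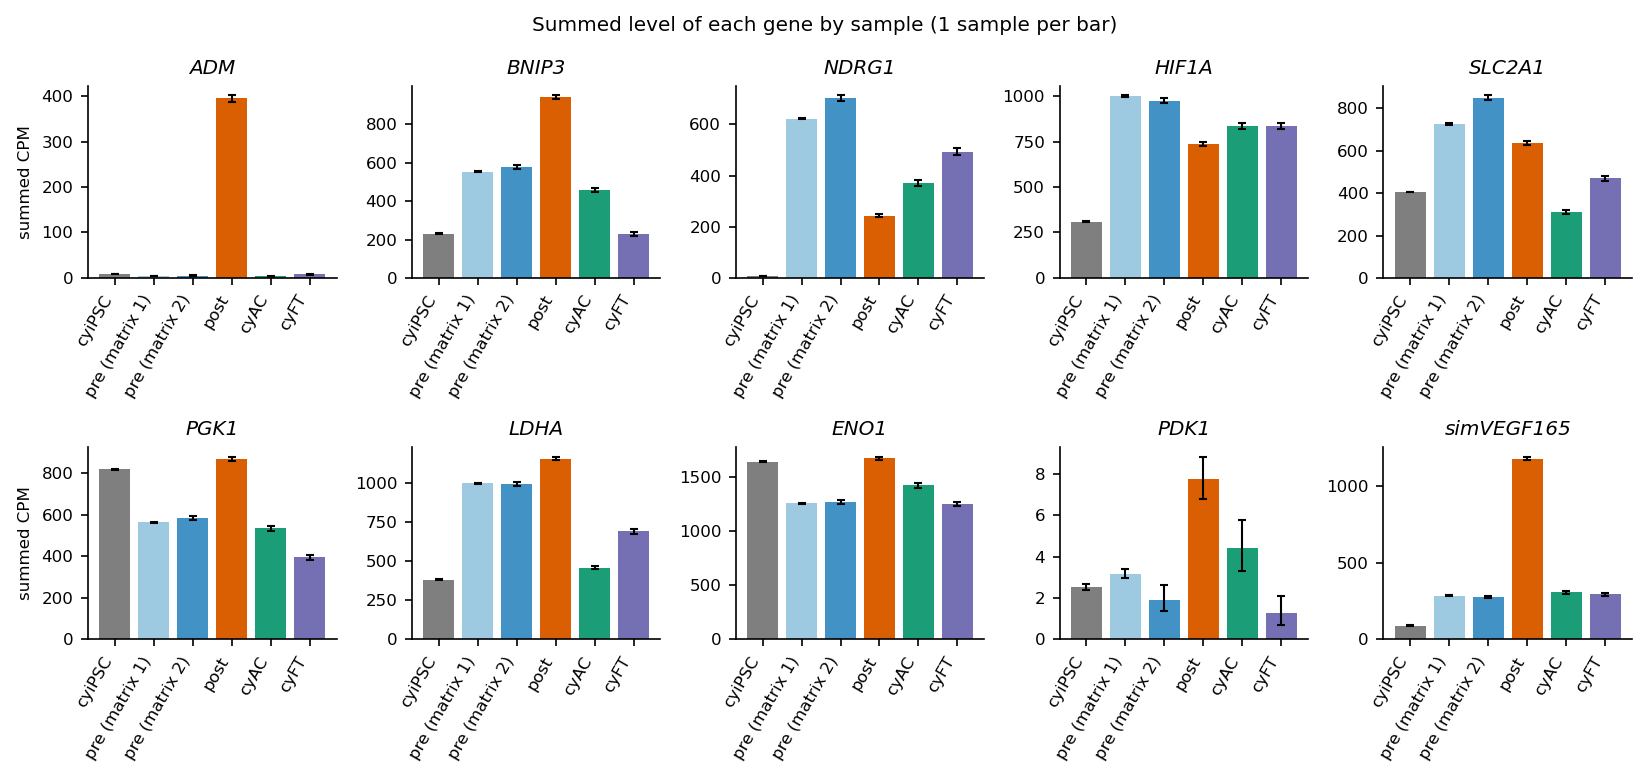
Summed CPM (y axis, linear from 0, scaled to each gene) of the 9 listed members and of the row simVEGF165 in each sample (x axis), 1 bar per sample, where pre (matrix 1) and pre (matrix 2) are the pre-transplant cells of the first and second matrix and error bars are exact 95% Poisson intervals of the counts. *ADM* stood at 395 CPM in post-transplant cells and under 10 CPM elsewhere, while *ENO1* stayed between 1252 and 1673 CPM.

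The high level of *ADM* was spread over most post-transplant cells. Reads of *ADM* were found in 222 of 320 post-transplant cells (69.4%, 64.0% to 74.4%, exact binomial), in 10.2% of cyiPSCs, in 4.68% and 5.31% of pre-transplant cells, in 2.50% of cyAC cells and in 5.63% of cyFT cells. After every cell was thinned to 1 depth, 12191 reads in the second matrix and 30967 in the first, the shares were 62.5%, 6.89%, 3.65% and 3.13%, 1.62% and 4.17% in the same order. The contrast between the samples was therefore present at equal depth within each matrix. The median post-transplant cell held 184 CPM, the upper quartile was 598 CPM and the 90th percentile was 1032 CPM. In 39 of the 320 post-transplant cells *ADM* reached 1000 CPM or more. Elsewhere 0 pre-transplant cells of either matrix, 0 cyAC cells, 1 cyFT cell and 3 of 2500 cyiPSCs did so.

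**Figure D2:**
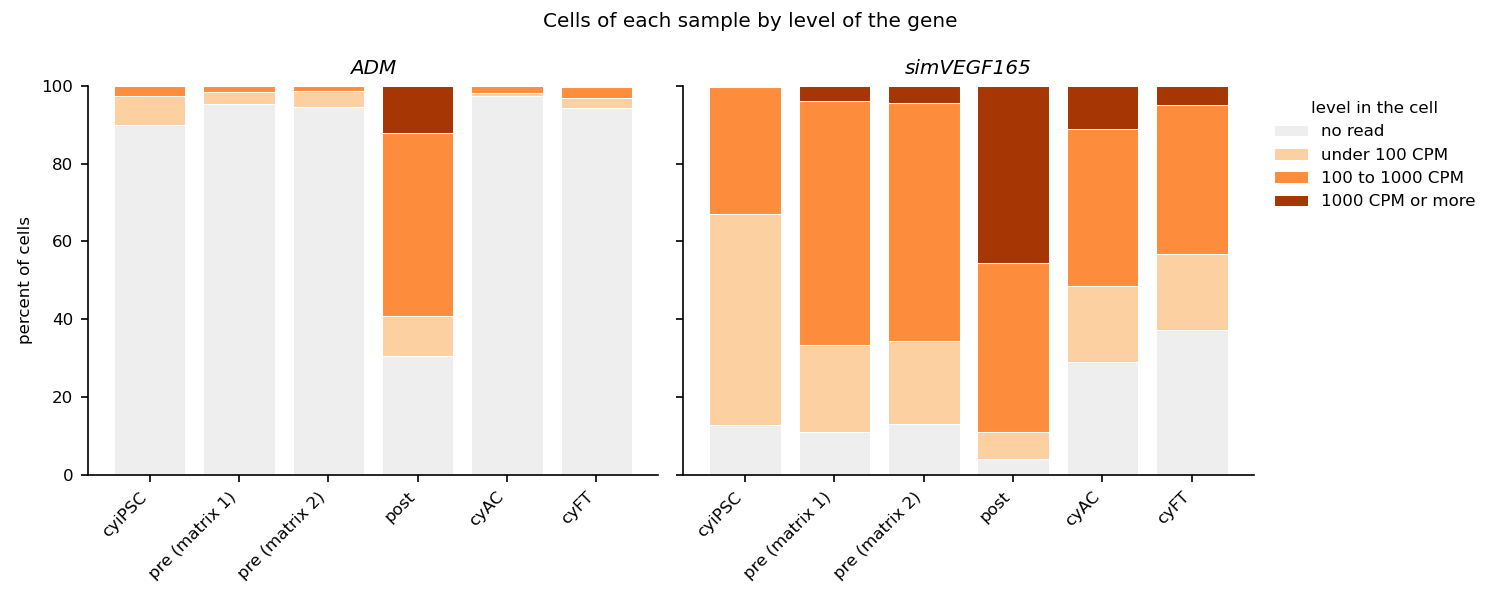
Percent of cells (y axis) of each sample (x axis) with no read, under 100 CPM, 100 to 1000 CPM or 1000 CPM and more of *ADM* (left) and of the row simVEGF165 (right), each bar summing to all cells of 1 sample. In post-transplant cells 46.9% lay between 100 and 1000 CPM of *ADM*, against 1.25% of pre-transplant and 1.87% of cyAC cells of the second matrix.

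The level of *ADM* was similar in the 2 largest collagen classes of post-transplant cells, and the remaining 8 cells were too few for a comparison. In the 265 post-transplant cells with reads of *COL2A1*, the collagen of hyaline cartilage, but none of *COL1A1*, the collagen of fibrous tissue, *ADM* stood at 404 CPM, and in the 47 cells with reads of both at 405 CPM. The 7 cells with *COL1A1* and no *COL2A1* held 1 read of *ADM* in all, or 1.28 CPM (0.0325 to 7.16), and the 1 cell without reads of either collagen held 40 reads, or 1708 CPM (1220 to 2326). Cells with and without reads of *PRG4*, the lubricin gene of the superficial zone, held 391 and 406 CPM. The 160 cells without a read of any endothelial or immune marker held 412 CPM, at a median depth of 64727 reads, and the other 160 held 382 CPM, at 93159 reads. Cells with an endothelial marker read numbered 146 and those with an immune marker read 27, so that this division rested mostly on the endothelial list, and within it on *ERG*. In post-transplant cells *PECAM1* was at 0.469 CPM and *VWF*, *CDH5* and *EMCN* at 0, and of the endothelial list *ERG* alone exceeded 1 CPM, at 80.7 CPM against 75.6 to 127 CPM in the other samples of the second matrix. The 3 fibroblast markers *COL1A1*, *COL1A2* and *COL3A1* were, like *ADM*, highest in the post-transplant sample, summing to 70558 CPM against 22669 CPM in pre-transplant cells of the second matrix, 8335 CPM in cyAC, 46693 CPM in cyFT and 251 CPM in cyiPSCs. None of the 3 was at 0 in any sample, and their part in the level of *ADM* was not tested. *COL1A2* had reads in 88.4% and *COL3A1* in 99.4% of post-transplant cells but *COL1A1* in 16.9%, and the smallest count of *COL1A1* above 0 there was 497, so that cells called without its reads are those with none in the deposited counts. The 7 immune markers summed to 26.3 CPM in post-transplant cells, 12.7 CPM in pre-transplant cells, 23.4 CPM in cyAC and 656 CPM in cyFT. By depth, the deeper and the shallower 160 cells held 396 and 392 CPM.

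A list of immediate early and heat response genes, which tissue digestion can raise, was, like *ADM*, highest in the post-transplant sample, while the order of the other samples differed. Its 7 listed genes of 12 (*FOS*, *FOSB*, *JUN*, *EGR1*, *DUSP1*, *ZFP36* and *DNAJB1*) summed to 150 CPM in cyiPSCs, in pre-transplant cells 1386 and 1334 CPM, 9313 CPM in post-transplant cells, 1896 CPM in cyAC and 3804 CPM in cyFT. None of the 7 was at 0 in any sample. Within the post-transplant sample *ADM* stood at 438, 337, 531 and 261 CPM in 4 equal bins of cells ordered by rising share of reads from that list, a division added after the data were seen. Reads of *ADM* were found in 70.0% of the cells of the lowest bin and 61.3% of those of the highest, where the median cell held 1282 and 19541 CPM of the list. In the same 4 bins of the pre-transplant cells of the second matrix the median cell held 200, 576, 1048 and 2919 CPM of the list, and *ADM* stood at 5.55, 3.47, 10.6 and 0.610 CPM. The part of the list's genes in the difference between samples was not tested.

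The glycolytic members encode the glucose transporter GLUT1 (*SLC2A1*), phosphoglycerate kinase (*PGK1*), lactate dehydrogenase A (*LDHA*), enolase 1 (*ENO1*) and pyruvate dehydrogenase kinase 1 (*PDK1*). Together they summed to 3254 CPM in cyiPSCs, in pre-transplant cells 3553 and 3704 CPM, 4346 CPM in post-transplant cells, 2734 CPM in cyAC and 2811 CPM in cyFT. These sums lay within a far narrower span than *ADM*. Against 1000 reads of the 5 glycolytic members there were 2.79 reads of *ADM* in cyiPSCs, 1.32 and 1.41 in pre-transplant cells, 90.8 in post-transplant cells (89.1 to 92.6), 1.42 in cyAC and 2.79 in cyFT. The post-transplant sample alone departed from a ratio of a few *ADM* reads per 1000.

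**Figure D3:**
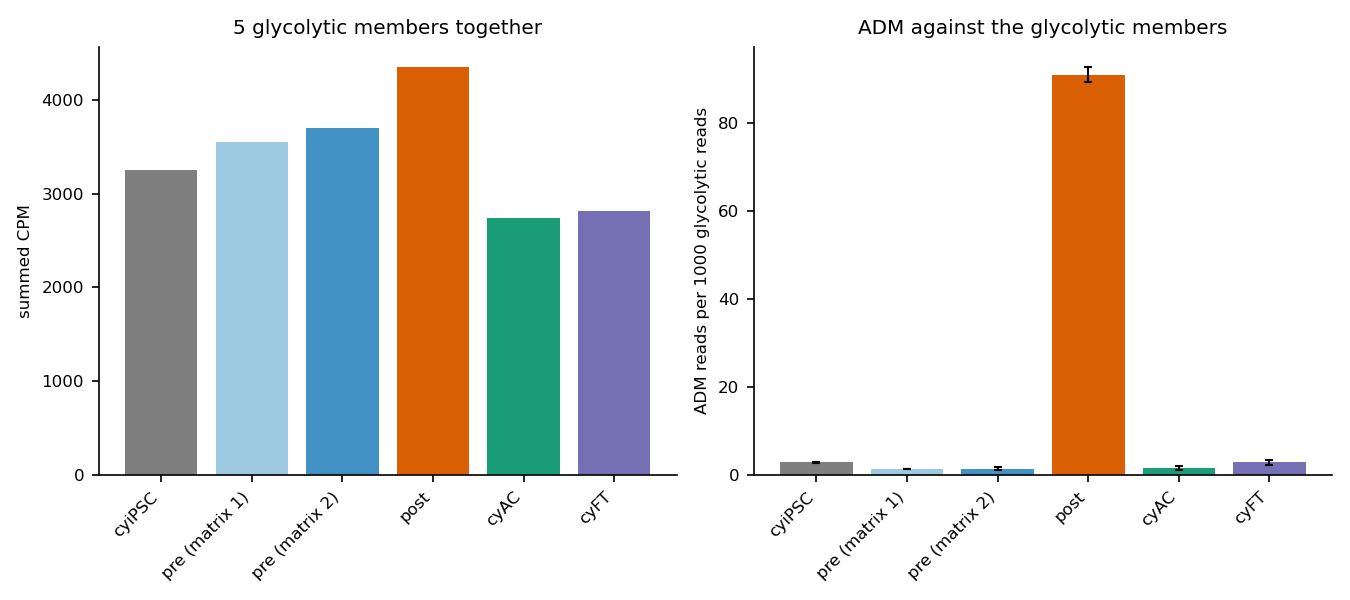
Left, summed CPM of *SLC2A1*, *PGK1*, *LDHA*, *ENO1* and *PDK1* together (y axis) by sample (x axis). Right, *ADM* reads per 1000 reads of those 5 genes with exact 95% counting intervals, 1 bar per sample. The sums ran from 2734 to 4346 CPM, while the ratio was 90.8 in post-transplant cells and at most 2.79 elsewhere.

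Taken singly, the glycolytic members had different orders across the samples. *LDHA* was at 383 CPM in cyiPSCs, in pre-transplant cells 1000 and 998 CPM, 1160 CPM in post-transplant cells, 461 CPM in cyAC and 694 CPM in cyFT. *SLC2A1* was at 406, 727, 850, 636, 312 and 469 CPM in the same order. Both were lowest among the cartilage samples in cyAC, but *SLC2A1* was highest before transplantation and *LDHA* after it. The share of cells with reads of *SLC2A1* was 97.5% before and 93.1% after transplantation, against 61.6% in cyAC and 62.5% in cyFT, and at equal depth 93.4%, 85.6%, 53.2% and 58.3%.

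*PGK1* and *ENO1* varied less. *PGK1* was at 819, 564, 585, 870, 535 and 395 CPM, in the order cyiPSC, pre-transplant of both matrices, post-transplant, cyAC and cyFT, and *ENO1* was at 1642, 1259, 1268, 1673, 1423 and 1252 CPM. For both, cyiPSCs and post-transplant cells were the 2 highest samples. The smallest count above 0 of *PGK1* and of *NDRG1* in the library of cyiPSCs and pre-transplant cells was 7, against 1 in the other libraries, and the cause was not tested. *PDK1* had few reads in all samples, from 1.26 CPM in cyFT to 7.77 CPM (6.80 to 8.84) in post-transplant cells, and was found in 1.56% to 9.52% of cells. It passed the filter on low values in none of the comparisons.

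The remaining members differed from the glycolytic ones and from each other. *BNIP3* was at 230 CPM in cyiPSCs, in pre-transplant cells 553 and 576 CPM, 941 CPM in post-transplant cells, 457 CPM in cyAC and 229 CPM in cyFT. *NDRG1*, a stress-responsive gene also linked to differentiation, was at 8.59, 622, 703, 242, 372 and 494 CPM in the same order. *BNIP3* was therefore highest and *NDRG1* lowest in the post-transplant sample among the cartilage and repair tissues. *HIF1A* was at 309, 1002, 976, 737, 834 and 836 CPM, and its reads were found in 94.1% to 99.7% of cells. Apart from the low level in cyiPSCs, the *HIF1A* transcript thus covered a small range, and it was lowest of the cartilage samples where *ADM* was highest.

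The row simVEGF165 was at 90.2 CPM in cyiPSCs, in pre-transplant cells 286 and 278 CPM, 1178 CPM in post-transplant cells, 306 CPM in cyAC and 293 CPM in cyFT. Its order resembled that of *ADM* in that post-transplant cells stood above every other sample. The ratio to pre-transplant cells was 4.24 (4.12 to 4.36) and the ratio to cyAC was 3.85 (3.72 to 3.99). Unlike *ADM*, it had reads in 62.8% to 89.0% of the cells of the other samples, and in 95.9% of post-transplant cells.

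For each comparison, genes were kept that reached 50 CPM and had reads in 25% of cells in at least 1 of the samples compared, and a gene was counted as higher or lower where the ratio of CPM + 1 was at least 2-fold. A gene kept only through the sample in which it is high will tend to differ, so the counts of kept genes describe and do not test. In the comparison that follows the same line of cells into the joint, post-transplant against pre-transplant, 8 of the 9 listed members were kept. *ADM* was the 1 member higher after transplantation and *NDRG1* the 1 lower, at 0.345 times (0.335 to 0.355) its pre-transplant level. Of all 3421 genes, 8.16% were higher and 22.1% lower. Among the members within 2-fold, *BNIP3* had a log2 ratio of 0.71, *PGK1* of 0.57, *ENO1* of 0.40, *LDHA* of 0.22, *HIF1A* of −0.41 and *SLC2A1* of −0.42. The median over the kept members was 0.31, beside −0.39 over all genes. With TMM scaling of the samples the median of all genes was −0.12 and the calls were 397 higher and 494 lower instead of 279 and 756, while *ADM* and *NDRG1* remained the members past 2-fold.

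**Figure D4:**
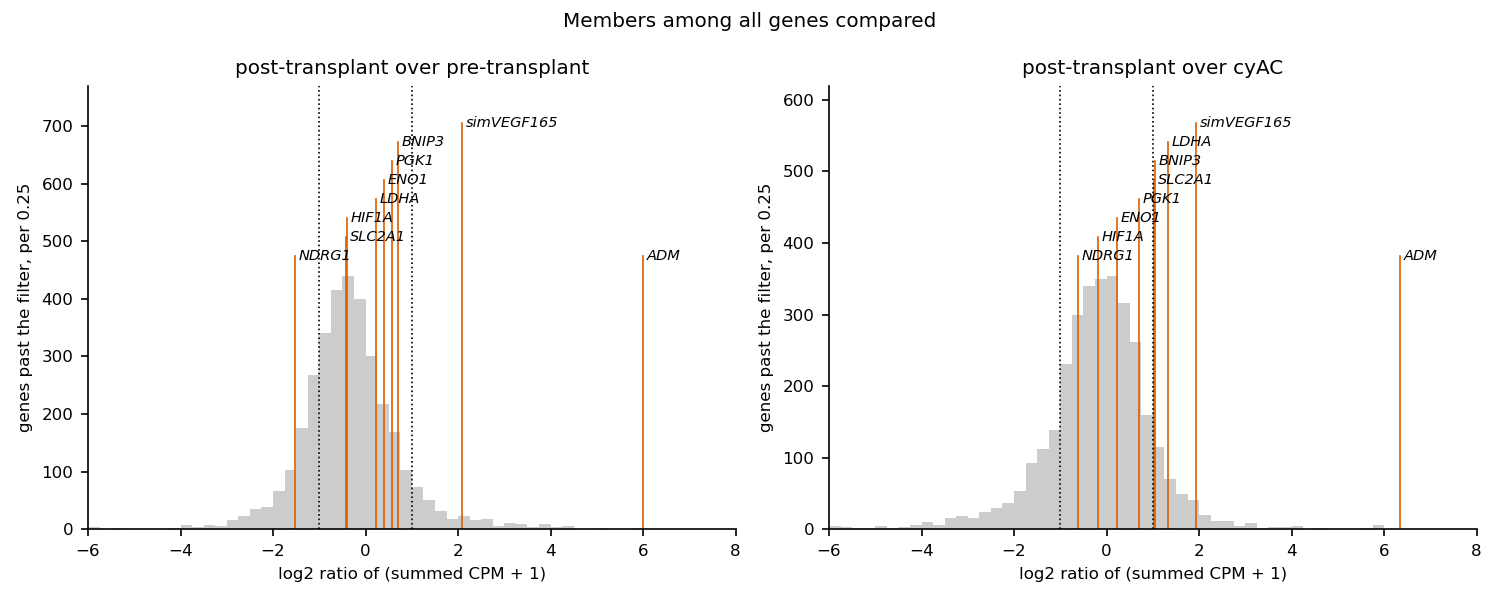
Number of genes (y axis) per step of 0.25 in the log2 ratio of summed CPM + 1 (x axis) for post-transplant over pre-transplant cells (left) and post-transplant cells over cyAC (right), with the kept members and the row simVEGF165 marked by orange lines and the 2-fold limits dotted. *ADM* stood at 5.99 and 6.34, outside the bulk of genes, and *HIF1A* at −0.41 and −0.18, within it.

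Other genes of the pathway, from lists written down by name, were not uniform in this comparison. Of 19 glycolytic enzymes and transporters beyond the members, 13 were listed and 10 kept. Of the 10, 5 were higher and 0 lower after transplantation, beside 8.16% and 22.1% of all genes, and the median log2 ratio was 0.79. *PFKFB4* and *PFKFB3*, which make the activator of phosphofructokinase, were at 75.7 and 206 CPM after and 3.80 and 21.0 CPM before, log2 ratios of 4.00 and 3.24. *PFKP*, a platelet-type phosphofructokinase, and *ENO2*, the neuronal enolase, had log2 ratios of 2.43 and 2.42. *ALDOA*, *TPI1*, *GAPDH*, *PGAM1*, *PKM* and *SLC16A3* were not listed under those symbols and are not analysed here. A list of 8 genes covered pyruvate entry into mitochondria and the pyruvate dehydrogenase step, and is called pyruvate entry below. Of these 8, 3 were kept and 0 were past 2-fold. *PDHA1* had a log2 ratio of −0.69, *MPC1* of −0.41 and *MPC2* of −0.02.

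Among the other HIF target genes more were higher than lower. All 17 listed of 18 were kept, and 10 were higher and 2 lower after transplantation, beside 8.16% and 22.1% of all 3421 genes. The median log2 ratio of the 17 was 1.13, beside −0.39 over all genes. *DDIT4*, an inhibitor of mTORC1 signalling, was at 229 CPM after and 16.9 CPM before, a log2 ratio of 3.68. *CA9*, a carbonic anhydrase of the cell surface, was at 116 and 8.50 CPM (3.62), the transcriptional repressor *BHLHE40* at 1112 and 120 CPM (3.21), and *ANKRD37* at 88.5 and 11.2 CPM (2.87). *DDIT4*, *CA9* and *ANKRD37* reached 50 CPM only in post-transplant cells and were kept through that sample. *PLOD2*, a collagen lysyl hydroxylase, was among the lower, with a log2 ratio of −1.17, and is named because the count was small. Of the HIF regulators 6 of 9 were listed and 1 was kept, *EGLN3*, a HIF prolyl hydroxylase that is itself a HIF target, at 88.9 CPM after and 27.1 CPM before (log2 ratio 1.68).

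The receptors through which adrenomedullin acts join CALCRL with RAMP2 or RAMP3. *CALCRL* had reads in 0 of 320 cells of each of the 4 samples of the second matrix, which by the same limit allows a share of cells with a read of up to 0.938%. *RAMP2* was at 3.80 to 10.5 CPM in those samples and *RAMP3* at 0 in pre- and post-transplant cells, 73.8 CPM in cyAC and 41.8 CPM in cyFT. Of the 10 receptor and ligand genes of adrenomedullin and VEGF, 2 were kept in the comparison of post- with pre-transplant cells, with *NRP1* at a log2 ratio of −0.04 and *NRP2* at −0.38, and 0 were past 2-fold.

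Against intact articular cartilage, the tissue the transplant is meant to replace, more members were past 2-fold. Of 8 kept members, 4 were higher in post-transplant cells and 0 lower, while of all 3235 genes 10.8% were higher and 17.8% lower. Beside *ADM* these were *LDHA* with a ratio of 2.52 (2.45 to 2.59), *BNIP3* with 2.06 (2.00 to 2.12) and *SLC2A1* with 2.04 (1.97 to 2.12). The last 2 lay just inside the limit, and *SLC2A1* was within 2-fold when levels were averaged over cells. *PGK1* had a log2 ratio of 0.70 and *ENO1* of 0.23, *HIF1A* of −0.18 and *NDRG1* of −0.61. The median over members was 0.86, beside −0.13 over all genes.

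The other lists differed in the comparison with cyAC. Of the 17 kept HIF targets 9 were higher and 0 lower in post-transplant cells, beside 10.8% and 17.8% of all genes. Among the higher were *ANKRD37* (log2 ratio 2.67), the carbonic anhydrase *CA12* (2.26) and *DDIT4* (2.11). Of 12 kept glycolytic genes beyond the members 4 were higher and 2 lower. *PFKFB4* had a log2 ratio of 3.23, the glucose transporter *SLC2A3* of 1.88, *PFKFB3* of 1.84 and *ENO2* of 1.82. Of the 3 kept regulators, *EGLN3* was higher (1.26), *EPAS1*, which encodes HIF-2α, was lower at 7.47 against 78.8 CPM (−3.24), and *VHL* was within 2-fold (−0.96). Of 4 kept receptor and ligand genes 1 was higher, *NRP2* (2.62), and 3 were lower, *RAMP3*, *RAMP1* (−1.65) and *NRP1* (−1.34). Of 2 kept genes of pyruvate entry, the carrier *MPC1* was higher (1.04) and *MPC2* had a log2 ratio of −0.13.

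In pre-transplant cells compared with cyAC, 2 of 7 kept members were higher and 0 lower, *SLC2A1* with a ratio of 2.73 (2.63 to 2.83) and *LDHA* with 2.17 (2.10 to 2.23). Of all 3498 genes 15.7% were higher and 11.3% lower, so that the members' count was not far from the background. *NDRG1* lay just outside the limit at 1.89 (1.83 to 1.96). *ADM* had too few reads to be kept, with 111 reads in 17 pre-transplant cells and 46 reads in 8 cyAC cells. *EPAS1* was at 7.14 CPM in pre-transplant cells, close to the post-transplant level and far under that of cyAC (log2 ratio −3.29). The HIF targets were divided, with 4 of 11 kept higher and 2 lower. *LOX*, a collagen cross-linking enzyme (2.61), and *PLOD2* (1.62) were among the higher and *BHLHE40* among the lower (−2.35). Of 10 kept glycolytic genes beyond the members 2 were higher and 4 lower in pre-transplant cells, *PFKP* having a log2 ratio of −2.11, *ALDOC* of −2.08, *SLC2A3* of 1.85 and *LDHB* of 1.68. *VHL* was the other regulator kept and was lower (−1.33). Among pyruvate entry genes 1 of 3 was higher, *MPC1* (1.44), with *PDHA1* at 0.67 and *MPC2* at −0.11. Of receptors and ligands 1 of 4 was higher, *NRP2* (3.00), and 3 lower, among them *RAMP1* (−4.35) and *NRP1* (−1.30).

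Between cyFT and cyAC, which shared a library, 0 of 7 kept members were past 2-fold, while 7.06% of 3270 genes were higher and 3.73% lower in cyFT. With TMM scaling the split over all genes was 160 higher and 180 lower instead of 231 and 122. *BNIP3* lay just outside the limit with 0.501 times (0.478 to 0.526) the level of cyAC, and it was past 2-fold with TMM scaling and with levels averaged over cells. *SLC2A1* and *LDHA* had ratios of 1.51 each, *NDRG1* of 1.33, *PGK1* of 0.738 and *ENO1* of 0.880. *HIF1A* was equal to within counting error (1.00, 0.974 to 1.03). *ADM* was not kept, with 87 reads in 18 cyFT cells. Of 12 kept HIF targets 2 were higher, *CA12* (1.85) and *DDIT4* (1.56), and 1 lower, *LOX* (−1.21), with *INSIG2* at −0.92. Of 10 kept glycolytic genes beyond the members 1 was higher, *SLC2A3* at 140 against 43.7 CPM (1.65), with *PFKFB3* at 0.72, *PFKL* at 0.58 and *HK1* at −0.50. The 2 kept regulators had log2 ratios of −0.98 (*EPAS1*) and −0.51 (*VHL*), and of pyruvate entry *PDHA1* had 0.11 and *MPC2* 0.01. Of the 4 kept receptors and ligands 1 was higher, *NRP2* (2.29), with *RAMP3* at −0.80, *RAMP1* at −0.72 and *NRP1* at −0.01.

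Cells of cyFT were mixed in collagen type, and several members differed between its classes. *SLC2A1* stood at 819 CPM in the 84 cyFT cells with *COL2A1* and no *COL1A1* reads and at 245 CPM in the 170 cells with *COL1A1* and no *COL2A1* reads. In the same classes simVEGF165 stood at 439 and 162 CPM, *LDHA* at 855 and 562 CPM, and *BNIP3* at 308 and 191 CPM. These were higher in the *COL2A1* class, whose median depth was 47802.5 reads per cell against 21830. The part of depth in this difference was not tested. *PGK1* differed little, at 402 and 395 CPM. In cyAC *BNIP3* stood at 504 CPM in 276 *COL2A1* cells and at 141 CPM in 16 *COL1A1* cells, with median depths of 30768.5 and 28438.5 reads. In post-transplant cells *SLC2A1* stood at 699 CPM in the *COL2A1* class, 376 CPM in cells with both collagens and 163 CPM in the 7 *COL1A1* cells.

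Comparing pre-transplant cells with the cyiPSCs they were made from, within 1 library, 4 of 7 kept members were higher and 0 lower in the pre-transplant cells. Of all 4684 genes 18.4% were higher and 38.5% lower. *NDRG1* had the largest ratio among the members, 72.4 (70.1 to 74.9), with rank 56 from the highest of all genes. Its reads were found in 8.92% of cyiPSCs and 80.9% of pre-transplant cells. The smallest count above 0 of *NDRG1* and of *PGK1* in this library was 7. The part of the absent lower counts in their ratios and shares was not tested. *HIF1A* had a ratio of 3.24, *LDHA* of 2.61 and *BNIP3* of 2.40. *SLC2A1* had a ratio of 1.79, and with TMM scaling it passed 2-fold (log2 ratio 1.51), so that 5 of 7 members were then higher. *PGK1* and *ENO1* had log2 ratios of −0.54 and −0.38, but with TMM scaling 0.13 and 0.29, and their direction therefore rested on the scaling. TMM scaling moved the median of all genes from −0.63 to 0.25 and the calls from 860 higher and 1801 lower to 1394 and 761. *ADM* was not kept, being under 10 CPM on both sides.

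The same comparison divided the lists. Of 9 kept glycolytic genes beyond the members 1 was higher and 5 were lower in pre-transplant cells. *LDHB*, the other lactate dehydrogenase subunit, was at 338 CPM against 2598 CPM (log2 ratio −2.94), *SLC2A3* at 138 against 951 CPM (−2.77), and *ENO2* and *PFKM* had log2 ratios of −2.63 and −2.52. Thus *LDHA* was higher and *LDHB* lower, and *SLC2A1* did not follow *SLC2A3*. Of 11 kept HIF targets 8 were higher and 1 lower, beside 18.4% and 38.5% of all genes. *PLOD2* at 2694 against 9.28 CPM (8.03) and *LOX* (6.64), which both act on collagen, led the higher, and *DDIT4* was the 1 lower (−2.73). Of 4 kept genes of pyruvate entry 1 was higher, *MPC1* (2.70), and 1 lower, *PDHB* (−2.29), with *PDHA1* at −0.45 and *MPC2* at −0.17. No HIF regulator was kept, so the count there was 0 of 0. Of 2 kept receptors 1 was higher, *NRP2* (2.17), with *NRP1* at −0.12.

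Whether *ADM* followed the glycolytic members from cell to cell was examined inside each sample, by dividing its cells into 4 bins of equal size by the summed share of reads of *PGK1*, *LDHA* and *ENO1*. In post-transplant cells *ADM* stood at 472, 310, 398 and 402 CPM from the lowest to the highest bin. The level did not rise across the bins (log2 ratio of the top over the bottom bin −0.23), whereas the share of cells with a read of *ADM* rose at each step, from 60% over 62.5% and 76.3% to 78.8%. Median depth in these bins was 75476.5, 76350.5, 85623.5 and 81870 reads per cell, and its part in the shares was not tested. In the other samples *ADM* stayed between 0.679 and 13.5 CPM in every bin. The Spearman correlation over cells between *ADM* and the summed share, with cells thinned to 1 depth, was 0.05 in 320 post-transplant cells and between 0.01 and 0.11 in the other samples. With all reads it was 0.10 in post-transplant cells and between −0.0034 and 0.08 elsewhere. These cells share a library and a preparation, and correlations of this size in sparse counts are no finding.

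*BNIP3* was higher in cells with more glycolytic reads in every sample but the cyiPSCs. It stood at 276, 387, 602 and 950 CPM across the bins of the pre-transplant cells of the first matrix, at 550, 862, 1076 and 1244 CPM in post-transplant cells, at 159, 338, 447 and 951 CPM in cyAC, at 143, 175, 272 and 309 CPM in cyFT, and at 229, 225, 231 and 236 CPM in cyiPSCs. It increased at each step in the 4 cartilage and repair samples and was flat in cyiPSCs. The bins of cyiPSCs spanned less, the median cell holding 2148 CPM of the genes that define the bins in the lowest and 3470 CPM in the highest. Those medians were 1388 and 4515 CPM in pre-transplant cells, 1740 and 5442 CPM in post-transplant cells, 801 and 4359 CPM in cyAC and 792 and 3837 CPM in cyFT. The part of the span in the flat level was not tested. Among the genes kept, other than the 3 that defined the bins, *BNIP3* had the highest log2 ratio of top over bottom bin in pre-transplant cells (1.78, rank 1 of 3211) and in cyAC (2.57, rank 1 of 2929). In post-transplant cells it ranked 63 of 2920 and in cyFT 86 of 3177. The share of genes past 2-fold higher was 0.145% in cyiPSCs, 0.311% in pre-transplant cells, 3.46% in post-transplant cells, 4.85% in cyAC and 3.97% in cyFT. The Spearman correlation of *BNIP3* with the summed share in thinned cells was 0.54 before transplantation, 0.36 after it, 0.43 in cyAC, 0.19 in cyFT and 0.06 in cyiPSCs.

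**Figure D5:**
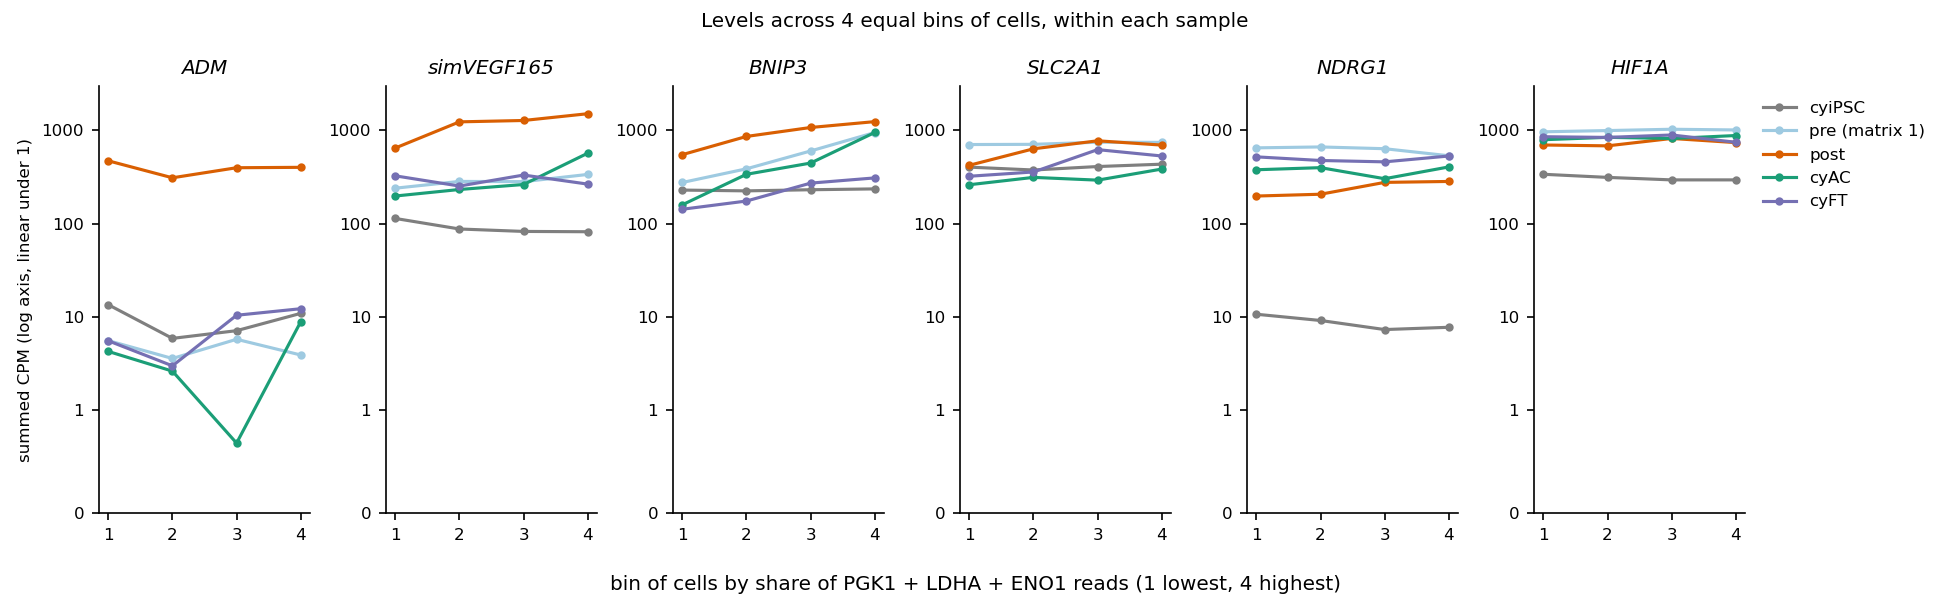
Summed CPM (y axis, logarithmic above 1 CPM) of 6 genes in the 4 bins of cells of each sample ordered by their share of *PGK1*, *LDHA* and *ENO1* reads (x axis, 1 lowest), 1 line per sample and pre-transplant cells from the first matrix. *ADM* in post-transplant cells stood at 472, 310, 398 and 402 CPM, with no steady rise, while *BNIP3* climbed from 159 to 951 CPM in cyAC.

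The row simVEGF165 stood at 648, 1237, 1279 and 1512 CPM across the bins in post-transplant cells and at 198, 232, 263 and 570 CPM in cyAC, both past 2-fold from bottom to top. It stood at 326 and 265 CPM in the bottom and top bins of cyFT and at 114 and 81.8 CPM in cyiPSCs, so that the direction was not shared by all samples. *SLC2A1* stood at 423 and 696 CPM in the bottom and top bins of post-transplant cells, 322 and 532 CPM in cyFT and 706 and 745 CPM in pre-transplant cells. *NDRG1* and *HIF1A* had log2 ratios of top over bottom between −0.42 and 0.52 and between −0.20 and 0.15 over the 5 samples, with *NDRG1* not kept in cyiPSCs. Median depth differed between the bins, for example from 27238 to 38630 reads per cell in cyAC, and its part in these values was not tested.

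The genes whose thinned counts most resembled those of *PGK1* over cells were listed in each sample of the second matrix. They are the highest of many correlations, and a difference between the lists was not tested. In 319 pre-transplant cells they were *BNIP3* (Spearman correlation 0.38), *ENO1* (0.35), *LDHA* (0.29), *FAM162A*, another HIF target (0.25), and *MIF* (0.24), out of 3588 genes. In cyAC they were *SMOC2* (0.30), *BNIP3* (0.28), *ENO1* (0.24), *TMEM45A* (0.23) and *GDF10* (0.23), and in cyFT *SELENOM* (0.23), *GNB2* (0.21), *BNIP3* (0.19), *SMC6* (0.18) and *GDF10* (0.17). In post-transplant cells they were *AGPAT5* (0.32), *ENO1* (0.31) and the matrix genes *ACAN* (0.28), *DCN* (0.28) and *COL2A1* (0.26). For *ADM* the list could be drawn only in post-transplant cells, where the highest values were 0.21 for *HTRA1* and for *UFC1*, 0.19 for *SERPINA3* and 0.18 for *NR1D1* and for *POSTN*, out of 2214 genes. No member was among these 5. Values this low in sparse counts are no finding, for *ADM* as for *PGK1* in cyFT and for values of like size in the other samples.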

How the data were processed

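TAS-Seq libraries were made on the BD Rhapsody system. According to the study's methods, the authors matched reads to the Ensembl transcript set of Macaca_fascicularis_6.0, kept cells above the inflection of the read-rank curve, and separated pooled samples by hashtags. In genes whose log2 maximum exceeded 8, counts taken for background were removed, which can turn low counts into 0. Per the labels, cutadapt 3.4, Bowtie2 2.4.2 and R 3.6.3 were used. The deposited values are counts of reads per gene and cell, and no unique molecular identifiers are described. Conditions were read from the prefixes of the cell names, as the study's supplied code assigns them. No doublet caller was run here.

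Counts were summed over the cells of each sample and divided by the sample's total (CPM). Depth was 11087496 to 415457877 reads per sample. Intervals at the 95% level were exact Poisson for levels, exact conditional for ratios and Clopper-Pearson for shares above 0, with 3 counts of the total as the limit for a share of 0, and they cover counting error only. Ratios used a pseudocount of 1 CPM. The filter was 50 CPM and reads in 25% of cells in either sample, and the limit was 2-fold. No test was run, since each condition was a single sample. The members and lists were chosen with earlier results of these data known, as was the rule for naming genes: the members in every sample and up to 4 genes per list and comparison with the largest log2 ratio among those kept. One gene that this rule names is not reported here. Markers of pluripotent, cartilage, fibroblast, endothelial, immune and erythroid cells and the transgene were listed as well. The pluripotent list summed to 320 CPM in cyiPSCs, 4.32 to 6.10 CPM in pre-transplant cells and 0 in the other samples, the fibroblast list to 70558 CPM in post-transplant cells and 251 to 46693 CPM elsewhere, the endothelial list to 4.83 to 138 CPM, and 0 of 3 erythroid genes were listed. Gene symbols were looked up in RefSeq (names only, since its assembly differs from that of the files), which held 94.9% of those in each matrix. Python 3.11.15, numpy 2.4.6, scipy 1.17.1, pandas 2.3.3, matplotlib 3.10.9, R 4.3.3 and edgeR 4.0.16 (TMM factors only) were used. The calculations were first tested on simulated data. Alternatives covered scaling, pseudocount, filters, fold limit, cell filters and, for pre-transplant cells, the other matrix.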

Additional observations from a re-analysis of the deposited data

How the results depend on the processing

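The number of members past 2-fold was recomputed under up to 12 alternatives for each of the 5 comparisons, and in 49 of 57 cases it stayed within 1.5 times. Single values moved more often past their counting intervals, which are narrow: log2 ratios of members stayed within them in 206 cases and left them in 127, shares of cells with a read in 165 and 105, and the level of *ADM* in the cells with the lowest share of immediate early and heat response reads in 2 and 2 samples. With a 3-fold limit it was 2 for pre-transplant over cyiPSC cells (*NDRG1* and *HIF1A*), 1 for post- over pre-transplant cells and 1 for post-transplant cells over cyAC (*ADM* in both), and 0 for pre-transplant cells over cyAC. For cyFT over cyAC, where the count was 0, it was 1 with TMM scaling and 1 with levels averaged over cells (*BNIP3*, lower, in both), 1 without the filter on low values (*PDK1*, lower, on 14 reads in cyFT) and 3 with a 1.5-fold limit. The changes with the limit and the filter follow from their construction, and the cause of the others was not tested. No member past 2-fold changed direction under the alternatives run. The log2 ratio of *ADM* ranged from 4.73 to 6.66 over pre-transplant cells and from 4.87 to 6.66 over cyAC, both lowest with a pseudocount of 10 CPM, which for single members was added after the data were seen. The stricter cell filter kept 287 of the 320 post-transplant cells and 289 of the 320 cyAC cells. At the depth of these libraries, values of *ADM* outside post-transplant cells rest on reads in 2.50% to 10.2% of cells and those of *PDK1* on 1.56% to 9.52%, and the background removal before deposit affects shares of cells with low counts. No paired analysis was possible because each condition was 1 sample.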
